A study of Arabidopsis thaliana with 12 samples.

Results

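The response of Arabidopsis thaliana seedlings of the line Col-7 to sucrose was read from 6 of the study's 12 Affymetrix ATH1 arrays. As the sample labels give them, 3 arrays held Col-7 grown with 100 mM sucrose and 3 held Col-7 given no treatment. All non-control probe sets were included, 22746 of the 22810 on the array. Seedlings of both groups grew in a growth room at 20 °C under continual light, on agar with reduced-strength MS salts at pH 5.7, after 4 days in the dark at 4 °C. RNA was taken from whole seedlings, and the labels speak of pools of 1000 seedlings. The duration of the sucrose treatment is not given in the sources used. The other 6 arrays held the line acn1-2, which carries a T-DNA insert in AT3G16910 in the Col-7 background, also with and without sucrose. They entered the estimate of the spread, the lower limit put on intensities, the choice of probe sets and the test of a difference between the lines. The study asked how organic acids and carbohydrates together act on gene expression, and the comparison here is of sucrose against none in plants without the insertion.

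Sucrose is both the carbon that plants move between organs and a signal. When cells run short of sugar, the kinase SnRK1 turns on genes for the breakdown of amino acids, proteins and organelles, and when sugar is plentiful the kinase TOR favours ribosome building and growth. Sugar fed to seedlings is also known to hold down genes of photosynthesis and to favour starch and anthocyanin.

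Values are intensities that the authors scaled so that each array had a trimmed mean of about 100.0, and a change is the log2 of sucrose over untreated, from limma. Per-array values are given in the order of replicates 1, 2 and 3. A gene was called at an adjusted p under 0.05 over the 13764 probe sets tested. Over these probe sets, 3562 rose (25.9%) and 3351 fell (24.3%). Each gene was then represented by its brightest probe set. Of 7342 such genes, 1845 rose (25.1%) and 1764 fell (24.0%), and the median log2 change was 0.00. In 4378 of them (59.6%) the 3 sucrose arrays and the 3 untreated arrays did not overlap. So large a share of genes moved that a group of genes has to be read against these percentages. Genes named for the largest changes of a group were picked among those whose arrays did not overlap. Their separation, where given below, follows from that choice and describes them only. The sucrose effect differed between Col-7 and acn1-2 for 8 probe sets (0.0581%). Precision is limited by the number of arrays. Because the labels do not call the replicates separate cultures, each p reflects the spread among these samples alone, and that spread may be technical.

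Col-7 sucrose replicate 3 stood apart from its group. The SD of its deviation from the group mean was 0.20 on the log2 scale, against 0.14 in each of the other sucrose arrays and 0.15 to 0.17 in the untreated arrays. Results that rest on it are given with and without it. For the actin control, the signal near the 3′ end over that near the 5′ end, a sign of RNA quality or labelling, was 2.3 to 3.4 on the untreated arrays and 6.0 to 6.9 on the sucrose arrays (two-sided exact permutation p 0.1, the smallest that 3 against 3 arrays allow). The mean ratio of the GAPDH control went the other way, from 1.153 untreated to 0.851 with sucrose (same test, p 0.1). That of the ubiquitin control was 2.106 untreated and 1.957 with sucrose (same test, p 0.3). The controls thus showed no common shift. The actin and GAPDH ratios moved with the medium, in opposite directions, and so alongside every gene group below. Their part in the results was not tested. Whole seedlings hold many cell types, and fewer cells of a type cannot be told apart from less RNA per cell. Of the cell type markers, the root hair genes EXPA7 and EXPA18 summed to 295 to 312 untreated and 418 to 679.6 with sucrose. The root gene PYK10 did not pass the test (log2 change -0.24, limma adjusted p 0.279), and FMA, the guard cell factor also called FAMA, fell by 0.58 on the log2 scale (adjusted p 0.00422). Markers of the phloem, xylem, epidermis, dividing cells and seed were not analysed here.

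**Figure D1:**
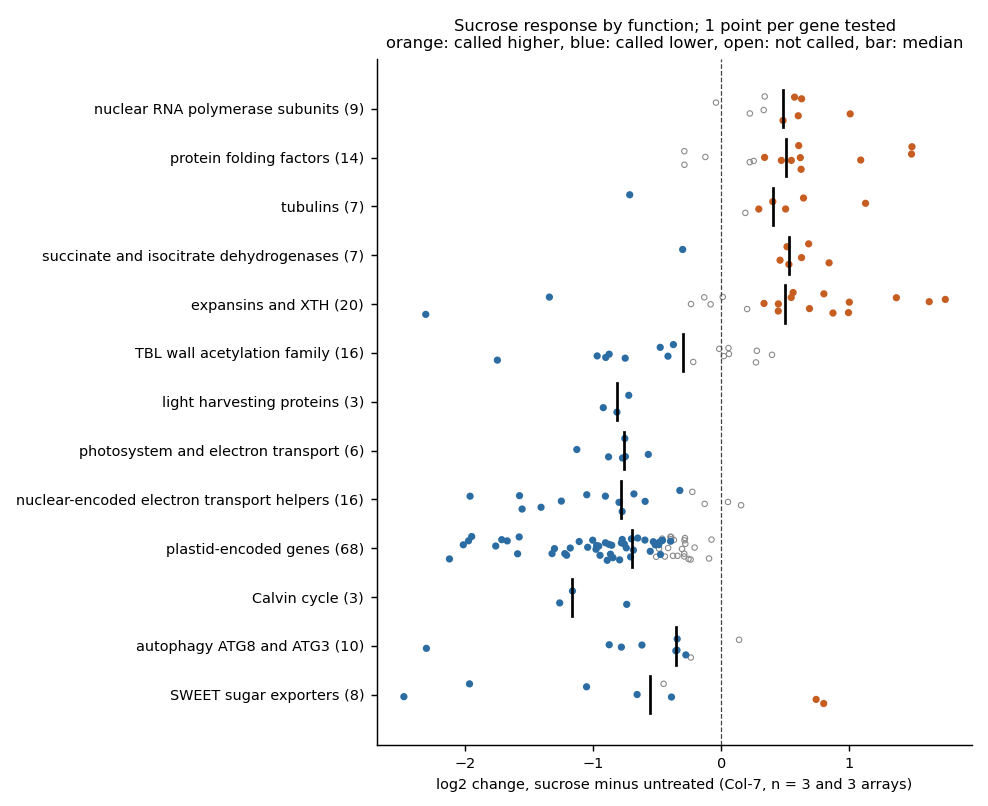
Log2 change (sucrose over untreated, Col-7, 3 arrays each) on the horizontal axis for each gene tested in a group, with called genes filled, the number of genes in brackets and a bar at the median; the protein folding and electron transport helper groups were gathered after their values were seen. The medians of plastid-encoded, light harvesting, photosystem and Calvin cycle genes lie to the left of 0, and those of nuclear RNA polymerase, protein folding and tubulin genes lie to the right.

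Carriers that move sugar across membranes were mostly lower with sucrose. Of the 9 sugar transport genes tested, 7 fell and 2 rose, and every one of the 9 was called. This group shares genes with the SWEET family but does not hold SWEET13 and SWEET14, which rose. The SWEET exporters, which let sucrose or hexoses run down their gradient out of cells or out of the vacuole, made up most of the falls. SWEET2, a hexose carrier of the vacuole membrane, had intensities of 330.3, 345 and 366 untreated and 71.5, 73.0 and 45.8 with sucrose (log2 change -2.48, SE 0.15, limma adjusted p 9.31e-08). The values of SWEET11, which exports sucrose from leaf cells for loading into the phloem, were 734, 757.5 and 686 on the untreated and 204.5, 209.6 and 148.5 on the sucrose arrays (log2 change -1.97, SE 0.13, limma adjusted p 1.29e-07). In both genes every sucrose array lay far below every untreated array, and replicate 3 was the lowest.

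The vacuolar carrier SWEET16 also fell (-1.05), whereas SWEET13 and SWEET14, plasma membrane carriers of the same sucrose-carrying clade as SWEET11, rose. SWEET13 went from 33.3, 50.2 and 40.7 to 66.1, 73.3 and 74.3 (log2 change 0.80, SE 0.14, limma adjusted p 0.000325). SWEET14 had intensities of 35.7, 34.3 and 36.9 untreated and 60.6, 58.6 and 59.5 with sucrose (log2 change 0.74, SE 0.10, limma adjusted p 5.21e-05). The arrays of the groups did not overlap in either. Of the 8 SWEET genes tested, 5 fell, 2 rose and 1 did not pass, with a median of -0.55. The carriers that fill the vacuole, TMT1 (0.41) and TMT2 (0.76), rose. These were the 2 rises of the sugar transport group, in which SWEET13 and SWEET14 were not counted. The values of TMT2, a tonoplast antiporter that loads sugar into the vacuole, were 70.1, 76.0 and 106 on the untreated and 143.5, 141 and 136 on the sucrose arrays (log2 change 0.76, SE 0.15, limma adjusted p 0.000944). SFP1, a monosaccharide carrier linked to senescence, went from 477, 461 and 489 to 260.0, 222 and 192 (log2 change -1.09, SE 0.12, limma adjusted p 1.12e-05). TMT2 was higher and SFP1 lower on all 3 sucrose arrays.

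AKINBETA1, a regulatory subunit of SnRK1, had intensities of 311, 319 and 324 untreated and 91.6, 79.4 and 73.1 with sucrose (log2 change -1.97, SE 0.11, limma adjusted p 5.92e-08). The sucrose arrays held less than the untreated ones throughout. Of the 6 sugar sensing genes tested it was the 1 that fell, and 1 rose, and the group's median was -0.07. The rise was that of bZIP44 (0.43), a basic leucine zipper factor, and its call ended without untreated replicate 2 (adjusted p 0.0968), untreated replicate 3 (adjusted p 0.116), sucrose replicate 1 (adjusted p 0.102), sucrose replicate 2 (adjusted p 0.07) or sucrose replicate 3 (adjusted p 0.0881). Without sucrose replicate 3 the number of falls in the group was 2. Of the 8 bZIP factors tested, BZIP61 was the 1 called lower. The values of BZIP61, another basic leucine zipper factor, were 144, 97.6 and 135 on the untreated and 52.1, 58.9 and 50.4 on the sucrose arrays (log2 change -1.21, SE 0.17, limma adjusted p 7.25e-05). Its groups were separate.

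Autophagy carries cell contents to the vacuole for breakdown, and the ATG8 proteins coat its membranes. Of 10 ATG8 and ATG3 genes tested, 8 fell and 2 did not pass, with a median of -0.35. ATG8E went from 581.5, 563 and 499.9 to 140.0, 121 and 79.7 (log2 change -2.31, SE 0.16, limma adjusted p 3.46e-07). ATG8F had intensities of 799, 816 and 752 untreated and 478, 483.5 and 343 with sucrose (log2 change -0.88, SE 0.13, limma adjusted p 9.66e-05). Neither gene's groups overlapped. ATG8C (-0.78) and APG8A (-0.62) fell too, while ATG3, the conjugating enzyme, stood at -0.24 (adjusted p 0.0559) and ATG8G at 0.14 (adjusted p 0.384). Without sucrose replicate 3 the number that fell was 6 and the median -0.34, and the calls of ATG8B and ATG8D were lost.

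Vacuolar processing enzymes, the proteases that activate other vacuolar proteins, moved apart. The values of GAMMA-VPE, the form of vegetative tissue, were 515, 492 and 635 on the untreated and 266, 256 and 177.5 on the sucrose arrays (log2 change -1.25, SE 0.16, limma adjusted p 3.42e-05). BETA-VPE, the form best known from seeds, went from 80.2, 73.8 and 96.5 to 180.3, 185 and 199.8 (log2 change 1.18, SE 0.11, limma adjusted p 2.57e-06). Each was separated by group on all arrays, in opposite directions. Of the 3 tested, 1 rose and 2 fell. DELTA-VPE was the other fall (-0.45), and its call ended without untreated replicate 3 (limma adjusted p 0.0502) or sucrose replicate 1 (adjusted p 0.0596). In the breakdown of branched-chain amino acids, lysine and methionine, 3 of 11 genes rose, 5 fell and 3 did not pass. The shares were 27.3% higher and 45.5% lower, against 25.1% and 24.0% of all genes. The call of MCCB (-0.45) ended without untreated replicate 2 (limma adjusted p 0.109) or sucrose replicate 3 (adjusted p 0.125, log2 change -0.33). That of ATBCAT-5 (0.47) ended without untreated replicate 3 (adjusted p 0.0571). The largest falls, of MCCA (-2.20) and IVD (-1.10), were in leucine breakdown. ETFQO, which passes electrons from this breakdown to the respiratory chain, and D2HGDH, which feeds it from lysine, changed by -0.83 and -0.69. MGL, the methionine gamma-lyase, went against the falls (0.85), as did BCAT4 (1.65), whose known role is in glucosinolate synthesis and which had 2 untreated arrays at the floor of 14.4.

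All 4 starch genes reported here rose. APL3, a large subunit of the enzyme that makes ADP-glucose for starch, had intensities of 23.7, 22.7 and 23.9 untreated and 236, 224 and 278 with sucrose (log2 change 3.39, SE 0.16, limma adjusted p 9.03e-09). The values of DPE1, the plastid disproportionating enzyme that works on short glucans, were 44.8, 39.6 and 42.6 on the untreated and 100.1, 90.1 and 92.1 on the sucrose arrays (log2 change 1.15, SE 0.12, limma adjusted p 5.62e-06). PWD, a kinase that phosphorylates starch to open it for breakdown, went from 117.5, 112.5 and 119 to 235.5, 239 and 231 (log2 change 1.01, SE 0.08, limma adjusted p 1.05e-06). All 3 genes were higher on every sucrose array, the first on the synthesis side and the others on the breakdown side. SBE2.2, a starch branching enzyme, was the other (0.43), and its call ended without untreated replicate 2 (adjusted p 0.067), sucrose replicate 1 (adjusted p 0.0689) or sucrose replicate 2 (adjusted p 0.0528). The 1 sucrose synthesis gene reported here is ATSPS4F, a sucrose-phosphate synthase. It fell from 107, 120.5 and 147 to 27.5, 26.4 and 8.1, and the last value was under the floor, so the size of its log2 change, -2.50 (limma adjusted p 1.21e-06), rests on it.

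Of 4 glycolytic genes tested, PPDK, which makes phosphoenolpyruvate from pyruvate, rose by 0.77 and TPI, the triose phosphate isomerase, by 0.30, although the call of TPI ended with any 1 of the 6 Col-7 arrays left out (adjusted p 0.0552 to 0.0944). GAPC2, a cytosolic glyceraldehyde phosphate dehydrogenase picked after its value was seen, stood at -0.02 (adjusted p 0.927). Of the succinate and isocitrate dehydrogenase genes, 6 of 7 rose, ICDH furthest (0.84), and 1 fell, cICDH (-0.30). The call of cICDH ended without untreated replicate 1 (limma adjusted p 0.0565), untreated replicate 2 (adjusted p 0.0514) or sucrose replicate 1 (adjusted p 0.0658). ACLA-2, a subunit of ATP-citrate lyase, which makes cytosolic acetyl-CoA, rose (0.53) and the other 3 subunit genes stood between -0.11 and 0.08. NDB2, an NADH dehydrogenase on the outer face of the inner mitochondrial membrane, rose (0.77), and the 3 others of its type did not pass. Of 8 aldehyde dehydrogenases, 4 rose and 2 fell, led by ALDH10A8 (1.01) and ALDH10A9 (0.75), both of the betaine aldehyde type. Without sucrose replicate 2 the counts were 3 and 1.

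**Figure D2:**
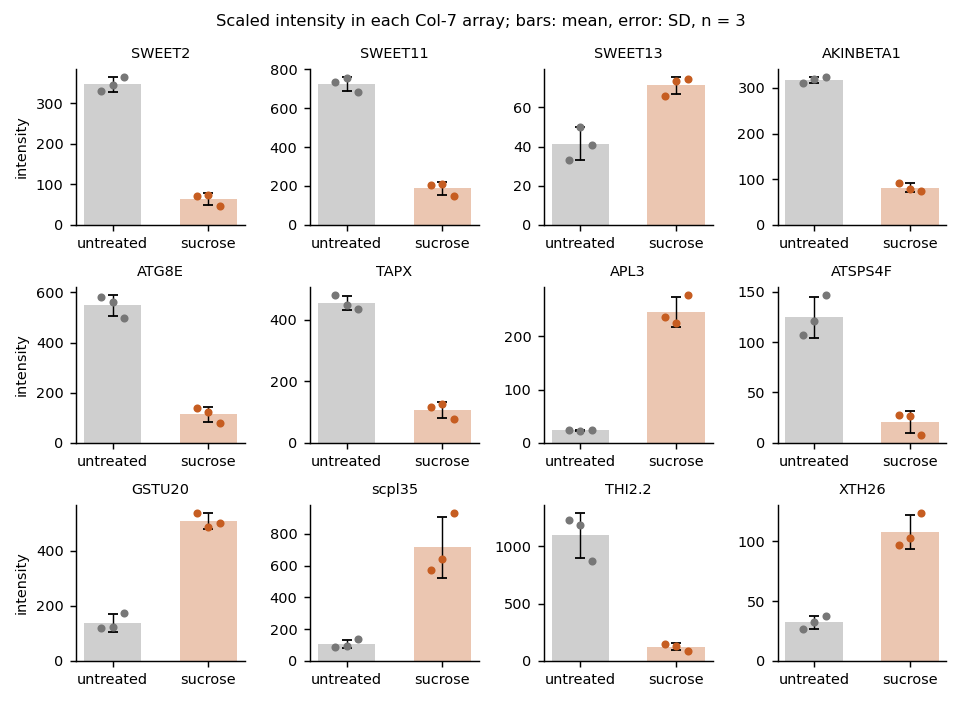
Scaled intensity of 12 genes named in the text, 1 point per Col-7 array, with bars for the mean and error bars for the SD (n = 3). In every gene drawn the sucrose points lie wholly above or wholly below the untreated points, which was a condition for choosing these genes.

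The few genes for the light reactions that are reported here fell together. They are 6 of 32 listed photosystem and electron transport genes and 3 of 20 listed light harvesting genes. Of the 6 nuclear photosystem and electron transport genes reported here all 6 fell, with a median of -0.76, and 5 did without sucrose replicate 3. PSAN, a subunit of photosystem I on the lumen side, had intensities of 2445, 2292 and 2108 untreated and 1204, 1126 and 832 with sucrose (log2 change -1.13, SE 0.18, limma adjusted p 0.000193). The values of PSB27, an assembly factor of photosystem II, were 2141, 2129.7 and 2176 on the untreated and 1380.3, 1299 and 886 on the sucrose arrays (log2 change -0.88, SE 0.18, limma adjusted p 0.00148). LHCB4.2, an inner antenna protein of photosystem II, went from 2917, 2723 and 2525 to 1790.1, 1675.5 and 982 (log2 change -0.92, SE 0.22, limma adjusted p 0.00356). Every sucrose array was below every untreated array in these genes, and replicate 3 was lowest in each. LHCB4.1 (-0.82) and LHCB4.3 (-0.72), the other antenna genes reported here, fell as well.

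In the Calvin cycle, which fixes carbon, the 3 genes reported here, of 21 listed, fell. SBPASE, the sedoheptulose bisphosphatase of the regeneration steps, had intensities of 2544, 2416 and 2482 untreated and 1282, 1247 and 849 with sucrose (log2 change -1.16, SE 0.17, limma adjusted p 0.000114). PRK (-1.26) and RCA (-0.74) were the other 2, and the summed intensity of the 3 genes was 0.50 times the untreated mean with sucrose. The values of HPR, the peroxisomal hydroxypyruvate reductase of photorespiration, were 2800.3, 2578 and 2684 on the untreated and 1127, 1104.5 and 625 on the sucrose arrays (log2 change -1.55, SE 0.20, limma adjusted p 4.47e-05). Both groups were again separate. LYC, the lycopene cyclase of carotenoid synthesis, fell (-0.65), as did HYH, a leucine zipper factor of light signalling (-0.59). Tetrapyrrole synthesis, which supplies chlorophyll and haem, had 2 rises and 2 falls among 8 genes, and 4 did not pass. CHLM, a methyltransferase of the chlorophyll branch, went from 1366, 1338 and 1478 to 893, 882 and 668 (log2 change -0.79, SE 0.14, limma adjusted p 0.000378). PORB, a light-dependent protochlorophyllide reductase, had intensities of 986.5, 1030.3 and 1211 untreated and 1836, 1653 and 1948 with sucrose (log2 change 0.75, SE 0.12, limma adjusted p 0.000239). GSA1, which makes the common precursor aminolevulinate, rose (0.54). HEME2 fell (-0.34), and its call ended without untreated replicate 1 (adjusted p 0.101), untreated replicate 3 (adjusted p 0.0966) or sucrose replicate 3 (adjusted p 0.136, log2 change -0.22), and without untreated replicate 1 or 3 this left 1 fall in the group.

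Genes encoded in the plastid genome also stood lower. Of 68 tested, 46 fell and 22 did not pass, with changes between -2.13 and -0.08 and a median of -0.69. At least a 2-fold fall was seen in 17, against 6.09% of all genes, and the groups did not overlap in 58, against 59.6% of all genes. The median deviation from the untreated level was -0.58, -0.53 and -0.91 on the 3 sucrose arrays, and without replicate 3 the number that fell was 37 and the median -0.54. The cDNA was primed with oligo(dT), per the labels, and plastid transcripts mostly lack stable poly(A) tails, so how fully they were captured was not tested.

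By complex, the median falls of the photosynthetic complexes were the larger ones, and those of the plastid's RNA polymerase and ribosome the smaller. In photosystem II 14 of 15 psb genes fell (median -0.87), in photosystem I 4 of 5 psa genes (-0.79), in the NDH complex of cyclic electron flow 7 of 9 ndh genes (-1.04), in the ATP synthase 4 of 6 atp genes (-0.74) and in cytochrome b6f 3 of 6 pet genes (-0.68). Of the plastid RNA polymerase 1 of 4 rpo genes fell (-0.26), and of the plastid ribosome 7 of 15 rps and rpl genes (-0.40). The difference between the complexes was not tested. The values of psbA, which encodes the rapidly replaced D1 protein of photosystem II, were 1888, 2138 and 1048 on the untreated and 386, 497 and 266 on the sucrose arrays (log2 change -2.13, SE 0.25, limma adjusted p 1.64e-05). psbB, for an inner antenna of the same photosystem, went from 856, 775 and 483 to 224, 244 and 88.6 (log2 change -2.02, SE 0.31, limma adjusted p 0.000159). ndhJ, for a subunit of the NDH complex, had intensities of 529.7, 482 and 269 untreated and 104, 146 and 74.2 with sucrose (log2 change -1.98, SE 0.25, limma adjusted p 3.58e-05). The untreated replicate 3 was the lowest untreated array for psbA, yet it lay above all 3 sucrose arrays. The other furthest fall, of ndhG, another NDH gene, was -1.95.

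**Figure D3:**
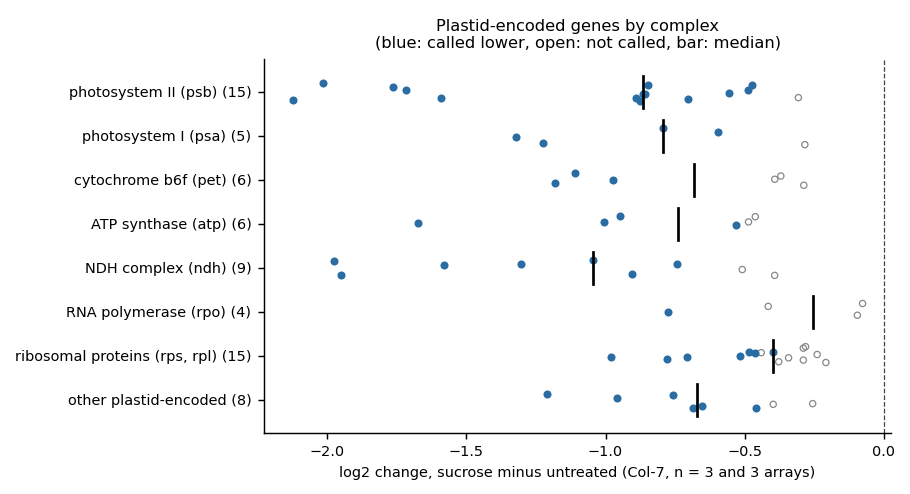
Log2 change of each plastid-encoded gene, grouped by the complex its product belongs to. Points for genes called lower are blue, open points were not called, and the bar is the median of the complex, which runs from -1.04 for ndh to -0.26 for rpo.

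Nuclear genes that build or assist the electron transport chain were gathered after their values were seen, and their count is a description. Of 16 tested, 12 fell and 4 did not pass, with a median of -0.79. The values of NdhL, a nuclear-encoded subunit of the NDH complex, were 581, 608 and 560.4 on the untreated and 189.9, 179.8 and 97.7 on the sucrose arrays (log2 change -1.96, SE 0.21, limma adjusted p 9.89e-06). NdhS (-1.56) and NdhN (-1.41), further subunits, and PIFI (-1.58), which is needed for NDH activity, fell as well.

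Thioredoxins and glutaredoxins pass reducing power from the light reactions and from NADPH to target enzymes. Of 10 tested, 2 rose (20.0%, against 25.1% of all genes), 4 fell (40.0%, against 24.0%) and 4 did not pass the test. TRXF2, a plastid f-type thioredoxin that activates Calvin cycle enzymes, went from 556, 538.5 and 733 to 249.8, 253 and 154.5 (log2 change -1.50, SE 0.18, limma adjusted p 2.77e-05). THX, the x-type plastid thioredoxin, had intensities of 900.5, 1022 and 1018 untreated and 533, 537 and 334 with sucrose (log2 change -1.10, SE 0.16, limma adjusted p 9.53e-05). Sucrose arrays were lower throughout in both. The y-type ty2 fell (-0.58), as did NTRC (-0.38), a plastid NADPH-dependent reductase with its own thioredoxin domain, whose call ended without untreated replicate 2 (adjusted p 0.0581), untreated replicate 3 (adjusted p 0.0996) or sucrose replicate 3 (adjusted p 0.125, log2 change -0.22). TO1 (0.67), a mitochondrial o-type thioredoxin, and GRXC2 (0.43), a glutaredoxin, rose. Among 16 redox proteins gathered after their values were seen, 6 rose and 8 fell. TRXF2 is also in this group, so its count is not separate from that of the thioredoxins. The values of TAPX, the ascorbate peroxidase of the thylakoid, were 481, 447 and 434 on the untreated and 117, 125 and 77.6 on the sucrose arrays (log2 change -2.12, SE 0.15, limma adjusted p 3.32e-07). SAPX, the ascorbate peroxidase of the stroma and mitochondria, went from 142, 131.5 and 152 to 323, 317 and 399.7 (log2 change 1.28, SE 0.12, limma adjusted p 3.96e-06). These close relatives moved in opposite directions on all arrays. SRX, the plastid sulfiredoxin, fell (-1.15) and MSRB5, a methionine sulfoxide reductase, rose (0.91).

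Of 9 nuclear RNA polymerase subunits tested, 5 rose and 4 did not pass, with a median of 0.48. NRPE7, a subunit of the plant-specific polymerase V, had intensities of 23.1, 23.0 and 20.8 untreated and 35.6, 55.4 and 45.6 with sucrose (log2 change 1.01, SE 0.16, limma adjusted p 0.000202). NRPC2 (0.60), the second-largest subunit of polymerase III, and NRPB12 (0.63), a small subunit of polymerase II, rose too. NRPB9B (0.57) and NRPA1 (0.48) completed the 5. The call of NRPB9B ended without untreated replicate 3 (adjusted p 0.125) or sucrose replicate 3 (adjusted p 0.119, log2 change 0.28), and the change of NRPA1 was 0.30 without untreated replicate 3.

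Both ribosome assembly genes reported here rose. The values of AT5G14520, the pescadillo gene PES of large-subunit assembly, were 186, 162 and 164 on the untreated and 313, 329 and 409.6 on the sucrose arrays (log2 change 1.03, SE 0.13, limma adjusted p 3.65e-05). PRH75, a nucleolar RNA helicase, rose by 0.51 from 207, 184 and 185 to 266, 273 and 279.7 (limma adjusted p 0.00118). PGY1, the only cytosolic ribosomal protein reported here, changed by 0.52, and EIF4A-2, a helicase of translation initiation, by 0.45, and both were called. Most genes of the cytosolic ribosome were not analysed here. Of 6 LSM genes, whose products form rings on RNA, 3 rose, and 1 did without untreated replicate 3 or without sucrose replicate 3. LSM1B (0.56) was called in each of these fits.

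Protein folding factors were another group gathered after values were seen. Of 14 tested, 9 rose and 5 did not pass, with a median of 0.51. Hsp70-2, a chaperone of the HSP70 family, went from 92.0, 94.0 and 113 to 259.8, 253 and 331 (log2 change 1.49, SE 0.13, limma adjusted p 1.42e-06). Cpn60beta2, a subunit of the plastid chaperonin, had intensities of 387, 363 and 499 untreated and 1178, 1145.5 and 1146 with sucrose (log2 change 1.49, SE 0.12, limma adjusted p 8.99e-07). The values of BOB1, a small heat shock protein needed for normal development, were 136, 120.3 and 112.5 on the untreated and 237, 241 and 310.4 on the sucrose arrays (log2 change 1.09, SE 0.12, limma adjusted p 1.12e-05). Each was higher on all 3 sucrose arrays than on any untreated array. Hop2, a co-chaperone, rose by 0.62.

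Tubulins, the units of microtubules, rose in 5 of 7 genes, and TUA1 went the other way. TUB1 went from 250.0, 260.5 and 285 to 539, 547 and 658 (log2 change 1.13, SE 0.11, limma adjusted p 3.09e-06). TUA1, an alpha tubulin best known from pollen, had intensities of 122, 127 and 153 untreated and 84, 72.9 and 87.7 with sucrose (log2 change -0.72, SE 0.15, limma adjusted p 0.00125). TUB9 (0.64), TUA6 (0.50) and TUB7 (0.40) were among the rises. The fifth rise was TUB5 (0.29), whose call ended without untreated replicate 1 (adjusted p 0.0845), untreated replicate 2 (adjusted p 0.117), untreated replicate 3 (adjusted p 0.0617), sucrose replicate 1 (adjusted p 0.0655) or sucrose replicate 3 (adjusted p 0.169, log2 change 0.19). Of 7 histone genes tested, 3 rose, all encoding histone H2B, namely HTB1 (0.65), HTB2 (0.51) and HTB4 (0.38), and HTR12, the centromeric histone, stood at 0.03 (adjusted p 0.881). Members of these families are alike in sequence, and signal shared between their probe sets could not be told apart.

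**Figure D4:**
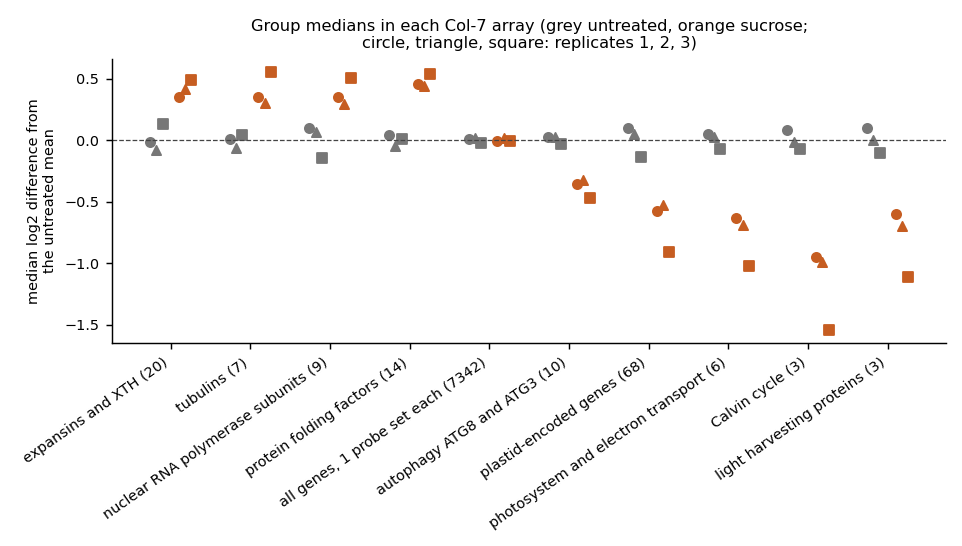
Median log2 difference from the untreated mean for each gene group on each Col-7 array, with untreated arrays grey, sucrose arrays orange and a symbol for each replicate number. Sucrose replicate 3 (square) lies farthest from 0 among the sucrose arrays in all groups drawn other than all genes, and the median of all genes stays near 0 on every array.

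The proteins that loosen and rebuild the cell wall rose for the most part. Expansins loosen the bonds between wall polymers, and XTH enzymes break and rejoin xyloglucan. Of 20 tested, 13 rose, 2 fell and 5 did not pass, with a median of 0.50, and 10 rose without sucrose replicate 3. The values of XTH26 were 26.6, 32.4 and 37.6 on the untreated and 96.8, 103 and 124 on the sucrose arrays (log2 change 1.75, SE 0.14, limma adjusted p 8.89e-07). XTH19 went from 126, 117 and 168 to 406, 441 and 410.1 (log2 change 1.63, SE 0.19, limma adjusted p 2e-05). EXPA20 had intensities of 40.1, 53.3 and 50.5 untreated and 103, 108 and 167.5 with sucrose (log2 change 1.37, SE 0.18, limma adjusted p 5.53e-05). The groups were separate in these 3 genes.

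Root hair markers moved with this group. EXPA7, an expansin of root hair cells, rose by 0.45 (limma adjusted p 0.0161), and this call ended without sucrose replicate 3 (0.29, adjusted p 0.069). The values of EXPA18, another root hair expansin, were 171, 187 and 197 on the untreated and 272, 297.5 and 478 on the sucrose arrays (log2 change 0.87, SE 0.17, limma adjusted p 0.000809). Their part in the rise of the wider group was not tested, and both are members of it. Against the majority, EXPA8 had intensities of 609, 628 and 580.2 untreated and 146, 156 and 80.2 with sucrose (log2 change -2.31, SE 0.21, limma adjusted p 2.85e-06). EXGT-A3, a xyloglucan endotransglycosylase, went from 657, 602 and 630.4 to 256, 243 and 246 (log2 change -1.34, SE 0.09, limma adjusted p 1.5e-07). Both were lower on every sucrose array.

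Of 7 GH9 endoglucanases, which cut glucan chains during wall growth, 3 rose and 4 did not pass. GH9C2 had intensities of 193, 176.5 and 209.6 untreated and 416, 427 and 361 with sucrose (log2 change 1.06, SE 0.12, limma adjusted p 1.27e-05). GH9C1 (1.06) and GH9B8 (0.73) were the other rises. The TBL family, whose known members acetylate wall polysaccharides, moved the other way, with 8 of 16 lower and the rest not passing (median -0.30). The values of TBL45 were 776, 803 and 729 on the untreated and 255, 256 and 182 on the sucrose arrays (log2 change -1.75, SE 0.13, limma adjusted p 6.98e-07). TBL36 went from 54.2, 63.2 and 46.4 to 25.7, 29.7 and 27.7 (log2 change -0.97, SE 0.17, limma adjusted p 0.000514). The fall was present on all sucrose arrays of both genes. TBL15 (-0.90) and TBL28 (-0.88) followed in size. Class III peroxidases, which cross-link or loosen walls, had 1 rise and 2 falls among 5 (20.0% and 40.0%, against 25.1% and 24.0% of all genes). The furthest was AT5G64120, also called PRX71, with 479.6, 449.8 and 333 untreated and 212.5, 198 and 143 with sucrose (log2 change -1.19, limma adjusted p 5.33e-05). The call of AT2G41480 ended without untreated replicate 1 (adjusted p 0.0598), untreated replicate 2 (adjusted p 0.0676) or sucrose replicate 2 (adjusted p 0.0635), and that of PRXR1 without untreated replicate 1 (adjusted p 0.0549), untreated replicate 2 (adjusted p 0.0854), sucrose replicate 1 (adjusted p 0.0877) or sucrose replicate 2 (adjusted p 0.0901).

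Among enzymes of specialised metabolism, the 3 genes of the flavonoid list reported here, DFR (3.39), UF3GT (3.70) and AT5MAT (3.16, 1 untreated array at the floor), rose. UDP-glycosyltransferases, which attach sugars to small molecules, had members called in both directions. Of 24 tested, 6 rose and 9 fell, and the falls were 4 without untreated replicate 2 and 5 without sucrose replicate 3. The rises were led by flavonoid enzymes. UGT78D2, a flavonoid 3-O-glucosyltransferase, had intensities of 136, 123 and 175 untreated and 406, 404 and 435 with sucrose (log2 change 1.54, SE 0.18, limma adjusted p 1.66e-05). The values of UGT78D1, a flavonol rhamnosyltransferase, were 82.4, 79.6 and 124 on the untreated and 279.8, 251 and 272.5 on the sucrose arrays (log2 change 1.52, SE 0.22, limma adjusted p 9.59e-05). UGT72E2, which glucosylates monolignols, went from 105, 112 and 127 to 264, 255 and 277 (log2 change 1.22, SE 0.11, limma adjusted p 1.96e-06). All 3 were higher on every sucrose array.

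Serine carboxypeptidase-like proteins, a family that holds both peptidases and acyltransferases, rose in 7 of 16 genes and fell in 1. scpl35 had intensities of 89.3, 92.9 and 136 untreated and 570.1, 638 and 933 with sucrose (log2 change 2.74, SE 0.18, limma adjusted p 1.67e-07). The values of scpl50 were 31.5, 21.7 and 28.7 on the untreated and 84.3, 72.9 and 94.1 on the sucrose arrays (log2 change 1.63, SE 0.16, limma adjusted p 4e-06). scpl46 went from 49.8, 44.3 and 63.3 to 22.9, 22.7 and 16.4 (log2 change -1.34, SE 0.26, limma adjusted p 0.000957). The first and second were higher and the third lower on all sucrose arrays. Of 11 beta-glucosidases, which release sugars from conjugates, 5 rose and 3 fell (45.5% and 27.3%, against 25.1% and 24.0% of all genes). The furthest were BGLU28 (1.35, SE 0.34) and BGLU46 (-1.86), the latter known to act on monolignol glucosides. BGLU28 had intensities of 28.0, 29.0 and 18.9 untreated and 89.7, 93.3 and 30.1 with sucrose, so sucrose replicate 3 lay just above the untreated arrays.

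Glutathione transferases, which attach glutathione to reactive compounds, fell in 5 of 10 genes (50.0%, against 24.0% of all genes). They rose in 2 (20.0%, against 25.1%), and 3 fell without untreated replicate 1 or without sucrose replicate 3. GSTU20 had intensities of 118, 122 and 175.5 untreated and 539.5, 485.5 and 502 with sucrose (log2 change 1.90, SE 0.13, limma adjusted p 3.37e-07). The values of GSTU18 were 209, 229.9 and 193 on the untreated and 87.1, 103 and 58.1 on the sucrose arrays (log2 change -1.39, SE 0.17, limma adjusted p 2.35e-05). These members of 1 class were separated in opposite directions. GSTU16 fell as well (-0.87). Of 8 cytochromes P450, CYP71B29 (-1.49) and CYP71B5 (-1.15) fell furthest.

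**Figure D5:**
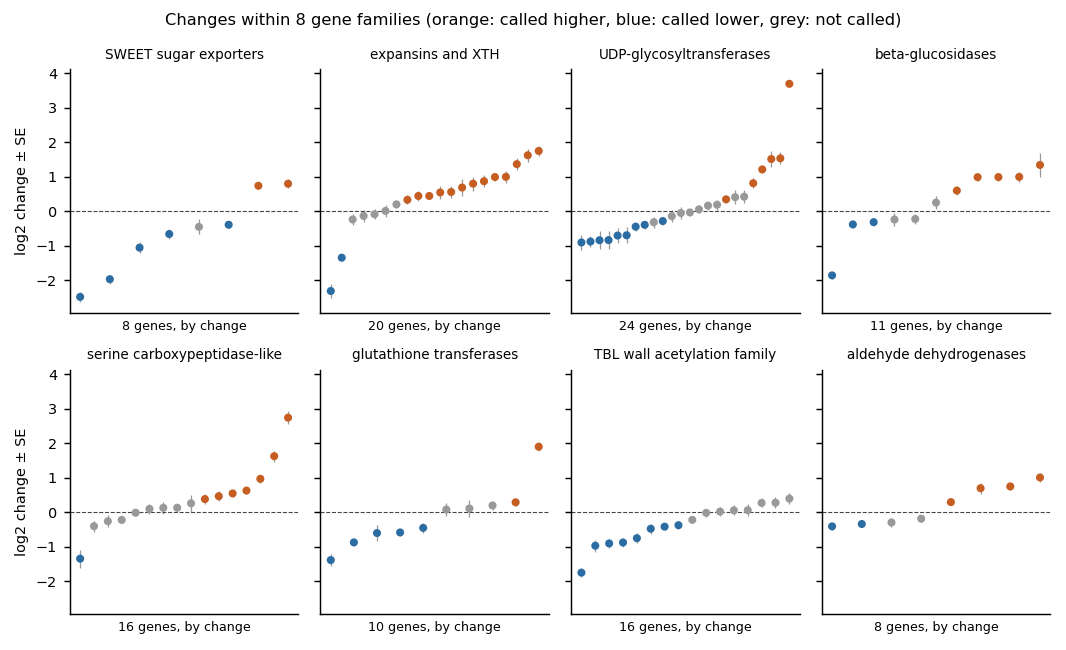
Log2 change with its SE of each tested gene in 8 families, ordered by change, with genes called higher in orange, called lower in blue and not called in grey. SWEET exporters run from -2.48 to 0.80 and expansins and XTH from -2.31 to 1.75.

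THI2.2, a thionin, a small antimicrobial peptide, went from 1235, 1184 and 868 to 146, 133 and 87.3 (log2 change -3.18, SE 0.18, limma adjusted p 5.92e-08). It fell on all arrays, while PDF2.1, a plant defensin, rose (1.05). RALF peptides, which act through receptor kinases on cell growth, rose in 3 and fell in 2 of 6, with RALFL34 at 0.71 and RALFL33 at -0.55. The call of RALFL24 ended without untreated replicate 1 (adjusted p 0.0799), untreated replicate 2 (adjusted p 0.0647), sucrose replicate 1 (adjusted p 0.0561) or sucrose replicate 2 (adjusted p 0.0659), and that of RALFL22 without untreated replicate 2 (adjusted p 0.071) or sucrose replicate 3 (adjusted p 0.0819, log2 change 0.27). CML30, a calmodulin-like protein, fell (-1.23), as did the calmodulin-binding IQD24 (-0.86), and IQD30 rose (0.67).

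Among 5 bHLH factors tested, 4 fell and bHLH34 did not pass (0.13, adjusted p 0.536). bHLH121, a regulator of iron balance, had intensities of 86.5, 87.9 and 78.1 untreated and 39.6, 44.3 and 41.0 with sucrose (log2 change -1.02, SE 0.13, limma adjusted p 3.05e-05). ILR3 (-0.49), bHLH115 (-0.37) and bHLH104 (-0.35), also known from iron regulation, fell less. The call of bHLH115 ended without untreated replicate 1 (adjusted p 0.0572) and that of bHLH104 without untreated replicate 2 (adjusted p 0.0597) or sucrose replicate 2 (adjusted p 0.066). Of the auxin genes, the repressor gene IAA18 fell (-0.84) and IAA34 rose (1.39), with 1 untreated array at the floor.

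Of 9 nitrate and peptide transporters, 1 rose (11.1%, against 25.1% of all genes), 2 fell (22.2%, against 24.0%) and 6 did not pass the test. The furthest was AT3G21670, also called NPF6.4, with 305, 263 and 357 untreated and 156, 146 and 62.5 with sucrose (log2 change -1.44, SE 0.28, limma adjusted p 0.000834). The call of AT2G26690 ended without untreated replicate 3 (adjusted p 0.0917) or sucrose replicate 3 (adjusted p 0.0942, log2 change -0.28), and that of GTR2 without untreated replicate 1 (adjusted p 0.0547) or untreated replicate 2 (adjusted p 0.0813). In AT3G21670 sucrose replicate 3 was far below the other sucrose arrays, which were themselves below the untreated ones. Cold-regulated, dehydrin and late embryogenesis genes, whose products include proteins that protect cells as they dry, rose in 4 of 8 and fell in 1. The rises were LEA4-5 (1.31), LEA18 (1.00), DI21 (0.97) and COR15B (0.58). The fall was XERICO (-0.25). Its call ended without untreated replicate 2 (limma adjusted p 0.154) or 3 (adjusted p 0.0818), or without any 1 sucrose array (adjusted p 0.0536 to 0.135). Tetraspanins, which organise membranes, had TET2 rise (1.02) and TET10 fall (-0.70).

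Of 9 ESCRT genes, which sort membrane proteins into the vacuole, 1 fell, VPS46.2 (-0.35), and the others stood between -0.29 and 0.19. The 11 ubiquitin conjugases tested had a median of -0.03. Of these 2 rose (18.2%, against 25.1% of all genes) and 3 fell (27.3%, against 24.0%). UBC20, which is tied to the cell cycle, had intensities of 102, 106 and 82.4 untreated and 206, 206 and 300.3 with sucrose (log2 change 1.28, SE 0.15, limma adjusted p 1.9e-05). Its groups were separate. The call of the other rise, of UBC30 (0.26), ended without untreated replicate 2 (adjusted p 0.0975), untreated replicate 3 (adjusted p 0.164), sucrose replicate 1 (adjusted p 0.0969), sucrose replicate 2 (adjusted p 0.0854) or sucrose replicate 3 (adjusted p 0.0783). UBC28 (-0.59), UBC32 (-0.37) and UBC16 (-0.31) fell, and the call of UBC16 ended without untreated replicate 2 (adjusted p 0.137), untreated replicate 3 (adjusted p 0.114), sucrose replicate 1 (adjusted p 0.0632) or sucrose replicate 3 (adjusted p 0.158). Of 12 ubiquitin proteases 4 rose (33.3%, against 25.1% of all genes), UBP23 furthest (0.71). NET1A, of the NET actin-binding proteins, rose (0.61). SIR, the sulfite reductase of sulfur assimilation, stood at 0.07 (adjusted p 0.524).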

How the data were processed

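RNA of whole seedlings was hybridised to 12 ATH1 arrays in 4 groups of 3, and the 6 Col-7 arrays are reported. The deposited table holds an intensity per probe set and array, scaled by the authors to a 2% trimmed mean of 100.01. The summarising software and genome build are not given in the sources used here, and no coordinates or sequences are reported. Of the probe sets, 13513 named 1 gene, 503 several and 8730 none in the platform annotation. Log2 was taken after a floor of 14.4, the pooled 25th percentile, had replaced lower values, and probe sets were tested where the mean over 12 arrays reached the pooled 40th percentile (29.1). All 4 group means were fitted with limma 3.58.1 in R 4.3.3 (eBayes, 8 residual degrees of freedom, two-sided, Benjamini-Hochberg). The median SE was 0.13. The fit was tested on simulated arrays. Members and lists were chosen with earlier results of these data known, and the lists marked in the text after their values were seen.

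Lists were described by counts and medians, with no set test. Members without a name in the annotation (229 of 985 measured) were left out after values were seen, as were name patterns other than bHLH, nitrate and peptide transporters, and thioredoxins and glutaredoxins. Named genes were, per list, up to 4 called members of largest change whose groups do not overlap, up to 2 called against the majority, and every measured member of lists of up to 12 loci. From outside the lists the 5 largest rises and 5 largest falls were named. The alternatives were a stricter filter (62.3), no filter, quantile normalization, no floor, a pseudocount, a variance trend with robust estimates, array weights, only the Col-7 arrays, a replicate block and leaving out each array. Figures were drawn with matplotlib 3.10.9.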

Additional observations from a re-analysis of the deposited data

Results flagged for a closer look

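AT2G47780 drew attention because its sucrose effect differed between the lines by the interaction test. In Col-7 its intensities were 176, 162 and 269.6 untreated and 1156.5, 1097 and 1427 with sucrose, a log2 change of 2.63 (SE 0.18). In acn1-2 they were 23.3, 29.5 and 31.0 untreated and 1219, 1190.2 and 1249.5 with sucrose. The difference of the effects, acn1-2 less Col-7, was 2.83 on the log2 scale (SE 0.25, limma adjusted p 0.000686). The sucrose levels of the lines overlapped, and the untreated levels did not.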

How the results depend on the processing

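The number of called probe sets, 6913, ran from 5641 with the stricter filter to 7690 with array weights, was 7008 with quantile normalization and 5832 to 6431 with 1 array left out. Each array's departure from its group mean was correlated between untreated and sucrose arrays. For equal replicate numbers the correlations were 0.002, 0.061 and 0.043, and for unequal numbers they ran from -0.074 to 0.026. Departures within a group of 3 are not independent, so these values cannot decide whether the replicate numbers pair the arrays. The replicate block called 6610 probe sets, of which 6206 were also called without it. The count of probe sets whose sucrose effect differed between the lines, 8, moved with the setting. It was 13 with the stricter filter, 18 with the variance trend and robust estimates, 22 with array weights and 13 without both acn1-2 untreated replicate 3 and Col-7 sucrose replicate 3, the arrays that stand apart. It ran from 4, without sucrose replicate 1 or 2, to 19, without sucrose replicate 3. The stricter filter tests fewer probe sets, and otherwise the cause was not tested. Of 316 named genes tested, calls were lost in 25 with the block, 18 with no filter, 13 with only the Col-7 arrays, 11 with array weights and 6 with quantile normalization. With 1 Col-7 array left out they were lost in 17 to 31, the most without sucrose replicate 3, and in 21 without both arrays that stand apart. The stricter filter left 62 of them untested. Among the called ones, 0 changed direction under these alternatives. Dim probe sets are limited by the floor, which sets a bound where an array lies on it.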

Other observations

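Further groups were gathered after their values were seen, and their counts are descriptions. In nitrogen-rich metabolites, AAH (-1.38) and ALN (-1.34) of purine breakdown fell, while PYRB of pyrimidine synthesis (1.2), OTC of arginine synthesis (0.82) and DELTA-OAT, which links ornithine and proline (0.82), rose. The values of ALN, the allantoinase, were 161, 155 and 180.5 on the untreated and 66.9, 73.9 and 56.6 on the sucrose arrays (log2 change -1.34, SE 0.11, limma adjusted p 1.39e-06). PYRB, the aspartate transcarbamoylase, went from 87.4, 88.1 and 81.7 to 193.5, 174 and 228 (log2 change 1.2, SE 0.11, limma adjusted p 2.33e-06). Each was separated by group on all arrays. Enzymes that process the start of new proteins included MAP1C (1.26) and PDF1A (0.88), which rose, and MAP1D (-0.61), which fell. CYTC-2, a cytochrome c, rose (0.99), as did MPPBETA of mitochondrial import processing (0.60) and VHA-A3 (0.47), a subunit of the vacuolar proton pump. Of 5 genes of mitotic kinases and the spindle checkpoint 4 rose, led by AUR2 (0.84) and BUB3.1 (0.73), and 2 did without untreated replicate 2 or without sucrose replicate 3.

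Among the largest changes outside the lists, AT5G62210 had intensities of 24.2, 17.0 and 33.9 untreated and 175, 159 and 101 with sucrose. AT2G30600 fell from 320.4, 343 and 216 to 24.0, 20.6 and 18.0 (-3.79), and AT2G20670 from 577, 514 and 679 to 50.0, 58.6 and 41.5 (-3.57). The annotation used here gives these loci no name. AT4G14090 and AT3G58060 had 2 untreated arrays at the floor and AT1G48660 had 1, and AT2G05540 and AT1G66100 had 1 sucrose array there, so the sizes of their changes (4.72, 2.64, 3.12, -5.18 and -4.58) depend on it. AT3G15450 fell by 3.76 on the log2 scale.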
